A study of Mus musculus with 6 samples.

Results

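The genes described here are 10 imprinted genes of the fetal and juvenile growth network, found by symbol in the table of reads counted per gene, 10 of its 55335 genes. They are Igf2, Dlk1, Mest, Peg3, Plagl1 and Ndn, which are expressed from the paternal copy, and H19, Meg3, Grb10 and Cdkn1c, which are expressed mainly from the maternal copy outside the brain. Aorta was taken from 3 young mice aged 6 weeks and 3 aged mice aged 6 months, all wild-type (WT), of the strain written c57b6l in the labels and C57BL/6 in the methods, with no treatment. The labels call them replicates 1 to 3 of each age, the methods describe all of them as males, and the fat around the vessel was dissected away before RNA was extracted from the whole wall. The comparison asks how aorta differs between these ages.

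An imprinted gene is read mainly from 1 parental copy, and which copy is read depends on DNA methylation set in the egg or sperm. Copies read from the father mostly favour growth of the offspring and those read from the mother mostly restrain it. Many genes of this network are abundant in fetal and newborn organs and decline as growth slows after birth, and Plagl1, a zinc finger transcription factor, is known to regulate several of them.

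Depth and the state of the libraries bear on every value given here. The counts per library summed to between 31049632 and 45832185. Young replicate 1 had 14806 counts of Xist, the RNA of the inactive X chromosome of females, against 7 to 24 in the other libraries, and 53 counts of the Y-linked gene Ddx3y against at least 1488, which goes against its description as male. The same library had the highest sum of striated muscle markers, with 10 markers summing to 271 CPM (counts scaled to a shared library size) against 55.5 to 68.8 elsewhere. The cardiac genes Tnnt2 (101.8 CPM) and Myh6 (79.7 CPM) were its largest parts. Tnnt3, Myh4 and Tnni2 were each higher in aged replicates 2 and 3, and Tnnt3 was lowest in young replicate 1 (2.27 CPM). The other markers of that list were highest in young replicate 1. Aged replicate 2 had the most adipocyte RNA, where 10 markers summed to 4845 CPM against 1011 to 2479 elsewhere. All 10 smooth muscle markers were detected in every library, and their sum overlapped between ages (33280 to 41230 CPM in young, 28830 to 34060 in aged aorta). All 10 had a lower mean in aged aorta, where 47.9% of all genes tested had a lower fitted level, and edgeR called 0. At an unadjusted p below 0.05, 4 were lower (Myh11, Smtn, Lmod1 and Myocd), where 4.82% of all genes were. The ages did not overlap for Myh11 and Lmod1, where 8.78% of all genes separated in that direction. Aged replicate 3 had the most endothelial RNA, where 10 markers summed to 1850 CPM against 433 to 598 elsewhere.

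Several miRNAs lie within these genes, and their mature sequences are shown because the host RNA is what was counted. In GRCm38 the miR-675 hairpin lies in an exon of H19, and those of miR-483 and miR-335 lie in introns of Igf2 and Mest, on the strand of the host. The sequences are those of RefSeq (GRCm38.p6), 5′ to 3′, with the seed (bases 2 to 8) in capitals.
mmu-miR-675-5p: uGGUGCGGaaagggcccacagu
mmu-miR-675-3p: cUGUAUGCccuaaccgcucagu
mmu-miR-483-5p: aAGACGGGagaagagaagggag
mmu-miR-483-3p: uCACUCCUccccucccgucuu
mmu-miR-335-5p: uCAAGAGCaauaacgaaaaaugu
mmu-miR-335-3p: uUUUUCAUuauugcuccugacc

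No seed is shared among these 6. The miR-675 pair maps to chr7:142577112-142577133 and chr7:142577078-142577099 on the minus strand, the miR-483 pair to chr7:142654968-142654989 and chr7:142654932-142654952 on the minus strand, and the miR-335 pair to chr6:30741314-30741336 and chr6:30741354-30741375 on the plus strand. Reads assigned to the hairpins themselves were 0 or 1 per library for Mir675 and 0 in all 6 libraries for Mir483 and Mir335, so these libraries measured the host RNAs and not the miRNAs.

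None of the 10 genes was called different between 6 weeks and 6 months, and movement of the network as a block was not tested. Of the 10 genes, 8 had a higher and 2 a lower fitted level in aged aorta, and their median log2 difference was 0.24, where the median over all 16612 genes tested was 0.02 and 47.9% of them were lower. The 2 lower genes were Meg3 and Peg3. edgeR's quasi-likelihood test called 0 of the 10 genes at an adjusted p below 0.05, beside 0% of all genes tested, and 0 of 10 had an unadjusted p below 0.05, where 4.82% of all genes were lower and 5.56% higher in aged aorta at that level. DESeq2 called 0 of the 9 genes for which it gave an adjusted p (none was given for Dlk1), where it called 1.91% of all genes. The ages did not overlap for 1 gene, Mest, which was higher in aged aorta, where 7.74% of all genes separated in that direction and 8.78% in the other. A 95% interval of the log2 fold change covered 0 for every one of the 10, and it was narrowest for Grb10 (-0.23 to 0.48) and widest for Igf2 (-2.21 to 3.66).

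**Figure D1:**
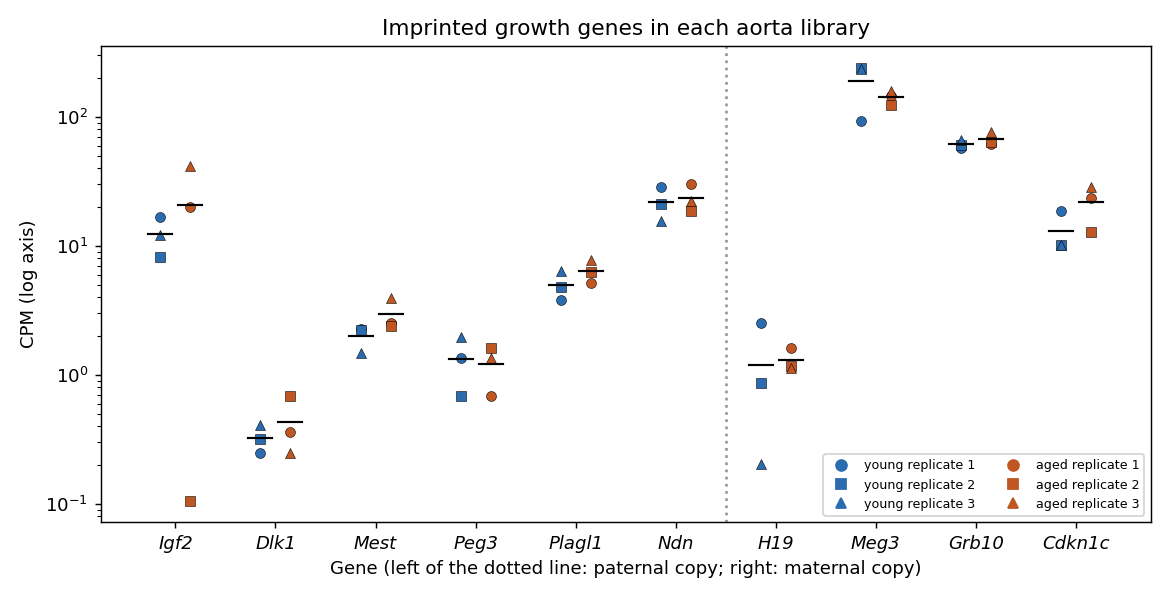
CPM on a log axis for the 10 imprinted growth genes, with 1 point per library (young blue, aged orange, replicates 1 to 3 as circle, square and triangle) and black lines at group means. Igf2 in aged replicate 2 lies at 0.106 CPM, far under the other libraries, while Grb10 stays between 57.4 and 75.8 CPM.

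**Figure D2:**
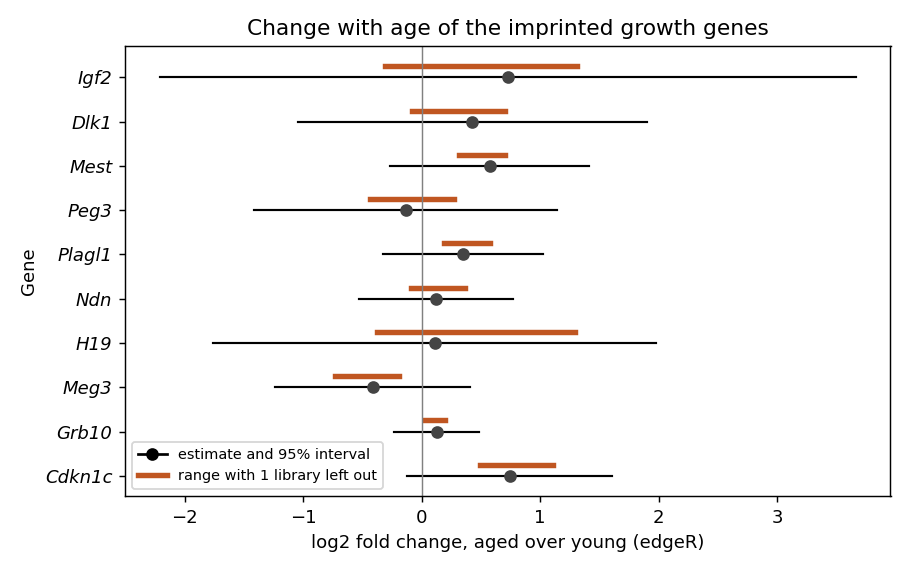
Fitted log2 fold change of aged over young aorta for each gene (points) with its 95% interval (black) and the range of estimates when 1 library is left out (orange bars). Every interval covers 0, and the orange bars of Meg3, Mest, Plagl1, Grb10 and Cdkn1c each stay on the same side of 0.

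Levels between genes were compared in FPKM, a count divided by gene length and library size. Meg3 stood highest at 8.45 ± 3.62 FPKM (SD over the 6 libraries), followed by Cdkn1c at 7.50 ± 2.83, Grb10 at 6.38 ± 0.566 and Ndn at 5.53 ± 1.34. Neighbours in rank among these 4 differed by less than the larger SD of the pair. Igf2 came next at 2.52 ± 1.96 FPKM, near the middle of the genes tested (percentile 48.0). Plagl1, Mest and H19 lay at 0.650 ± 0.138, 0.547 ± 0.141 and 0.443 ± 0.300 FPKM, again closer to each other than their spread. Peg3 and Dlk1 were lowest, at 0.0828 ± 0.0370 and 0.0580 ± 0.0258 FPKM, in the lowest 2.48% and 1.19% of genes tested. Aorta at these ages thus held little RNA of Dlk1, with 7 to 26 counts per library, and of Peg3, with 23 to 68 counts.

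Igf2 encodes insulin-like growth factor 2, the main fetal growth factor of the family. The gene lies at chr7:142650766-142666816 on the minus strand (GRCm38, GENCODE M21). It had 16.8, 8.22 and 12.2 CPM in young replicates 1, 2 and 3, and 19.9, 0.106 and 41.8 CPM in aged replicates 1, 2 and 3. The aged libraries thus held both the highest and the lowest value of the series, a 394-fold range, where the young libraries differed by 2.05-fold. Aged replicate 2 had 4 Igf2 counts of 40365160 (exact Poisson 95% interval 1.09 to 10.2, for counting error only), while the other 5 libraries had 286 to 1180. Among 10296 genes with at least 5 CPM in the 5 other libraries, the gap between the lowest library and the next, 77.5-fold for Igf2, was the sixth largest. Larger gaps were seen in Gm5148, Gm38394, Rlim, Kdm5d and Ttbk2, each in another library than aged replicate 2, and Kdm5d is a Y-linked gene that was low in young replicate 1. This ranking was chosen after the counts of Igf2 were seen.

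The fitted log2 fold change of Igf2 was 0.73 (standard error 1.25, adjusted p = 0.852 by edgeR), so the difference was not detectable against the spread of the aged libraries. Without aged replicate 2 it was 1.31 (adjusted p = 0.252 by edgeR), and without young replicate 1 as well it was 1.61 (adjusted p = 0.190 by edgeR). Those libraries held the lowest aged and the highest young Igf2 value, so leaving them out raises the estimate by construction. Without aged replicate 3, which held the highest value, the log2 fold change was -0.31. Aged replicate 3 was also the highest library for Mest, Plagl1, Grb10 and Cdkn1c, so 5 of the 10 genes peaked there, and it is the library with the most endothelial RNA. The part of endothelial RNA in those values was not tested. The antisense gene Igf2os, which overlaps Igf2 by 7124 bases, had 3 to 17 counts per library and the neighbouring Ins2 had 0 counts in 5 of 6 libraries and 5 in young replicate 1. Strand-specific counting is not stated in the sources used here, so reads of overlapping genes on opposite strands cannot be told apart.

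Fibroblast markers were read beside Igf2. Their sum over 10 genes was 13060 CPM in aged replicate 1, 4718 in aged replicate 2 and 9330 in aged replicate 3, against 6286 to 8494 in young aorta. Aged replicate 2 was thus lowest in the summed fibroblast RNA too, where 6 of the 10 markers lay below all 3 young libraries, Pdgfra, Dpt and Ly6a lay above them, and Dcn lay within their range. Per 1000 CPM of these markers, Igf2 was at 0.0225 in aged replicate 2, while the remaining 5 libraries lay from 1.19 to 4.48. This scaling was added after the values were seen, and under it every one of the imprinted growth genes overlapped between the ages. In whole tissue, fewer cells of a type and less RNA per cell cannot be told apart. The part of adipose RNA, highest in that library, in the low Igf2 value was not tested.

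H19 is a noncoding RNA of the same cluster, read from the maternal copy, which shares enhancers with Igf2 (chr7:142575529-142578143, minus strand). Its levels were 2.54, 0.862 and 0.204 CPM in young replicates 1, 2 and 3 and 1.63, 1.17 and 1.13 CPM in aged replicates 1, 2 and 3. The young libraries spread 12.5-fold around the aged ones, which differed by 1.44-fold, and the log2 fold change was 0.11 (standard error 0.80, adjusted p = 0.970 by edgeR). The highest H19 value was in young replicate 1, the library with the highest sum of striated muscle markers and with female Xist. Without that library the log2 fold change was 1.30. H19 was not low where Igf2 was: aged replicate 2 held 44 H19 counts beside 4 of Igf2, or 1100 reads of H19 per 100 of Igf2, against 1.68 to 15.1 in the other libraries. The log2 ratio of H19 to Igf2 did not separate the ages (difference 2.09, exact two-sided permutation p = 0.7, where 3 against 3 libraries can reach no less than 0.1).

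**Figure D3:**
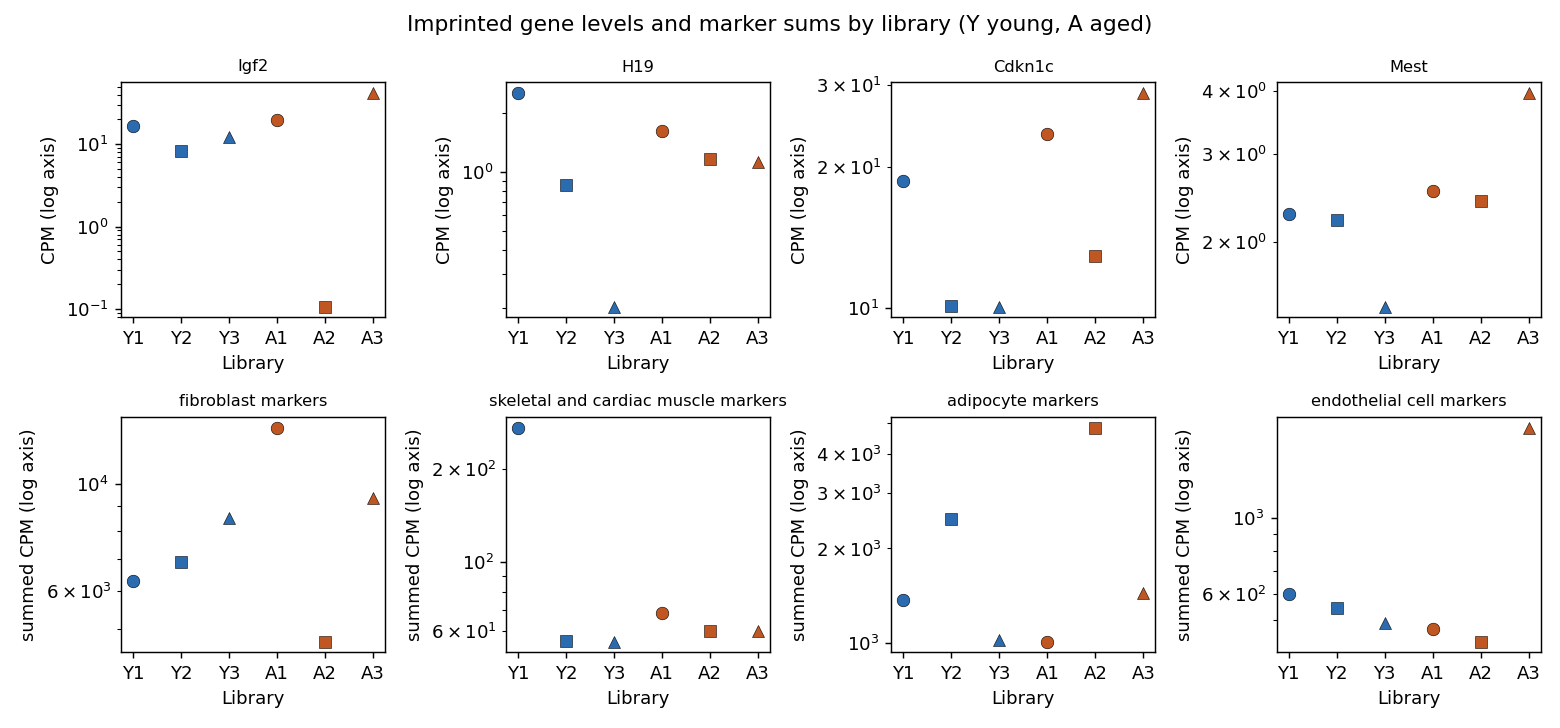
CPM of Igf2, H19, Cdkn1c and Mest and summed CPM of fibroblast, striated muscle, adipocyte and endothelial markers in each library, on log axes that differ between panels (Y, young in blue; A, aged in orange; numbers are replicates). The lowest Igf2 value (0.106 CPM) and the highest adipocyte sum (4845 CPM) are in aged replicate 2, the highest H19 value (2.54 CPM) and muscle sum (271 CPM) are in young replicate 1, and the highest Igf2 value (41.8 CPM) and endothelial sum (1850 CPM) are in aged replicate 3.

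Meg3 is the maternal noncoding RNA of the Dlk1 to Dio3 domain (chr12:109541001-109571726, plus strand). It was at 93.2, 241.5 and 234.8 CPM in young replicates 1, 2 and 3, and at 145.7, 123.3 and 158.3 CPM in aged replicates 1, 2 and 3. Young replicate 1 was the lowest of all 6 libraries and the other young libraries were the highest, so the groups overlapped through that library alone. The log2 fold change was -0.41 (standard error 0.35, adjusted p = 0.688 by edgeR), and without young replicate 1 it was -0.73 (adjusted p = 0.370 by edgeR). It was -0.19 without young replicate 2 and -0.23 without young replicate 3, and from -0.32 to -0.49 without 1 of the aged libraries. In the fit without young replicate 1, 11.3% of all genes had an unadjusted p below 0.05. Meg3, Mest, Plagl1 and Cdkn1c were the 4 genes whose direction held in all 16 alternative settings.

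Rian and Mirg are noncoding RNAs downstream of Meg3 on the same strand, known to be read from the same copy and to host small RNAs. Rian was at 30.5, 50.4 and 51.3 CPM in young replicates 1, 2 and 3 and at 60.2, 48.5 and 75.6 CPM in aged replicates 1, 2 and 3, with a fitted log2 difference of 0.48 (adjusted p = 0.552 by edgeR). Its mean was higher in aged aorta, the opposite direction to Meg3. For every 100 Meg3 reads there were 32.7, 20.8 and 21.8 Rian reads in young and 41.3, 39.3 and 47.8 in aged aorta, so each aged library lay above each young one. The log2 ratio was -2.02 ± 0.358 in young and -1.23 ± 0.146 in aged aorta (SD, n = 3 each), a difference of 0.79 with an exact two-sided permutation p = 0.1, the smallest this design can give. The difference was 1.00 without young replicate 1 and 0.85 without aged replicate 2. The other planned ratios, of H19 to Igf2, Meg3 to Dlk1 and Cdkn1c to Igf2, overlapped between the ages. A ratio within a library does not depend on its scaling.

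The same ratio for Mirg, taken up after the values of Rian were seen, was 1.93, 2.61 and 1.54 reads per 100 Meg3 reads in young and 3.06, 5.18 and 2.79 in aged aorta. The groups again did not overlap (log2 difference 0.84, exact two-sided permutation p = 0.1), and the difference was 0.82 without young replicate 1 and 0.56 without aged replicate 2. Both ratios share the Meg3 counts, so the pair is not independent. The share of reads from the mitochondrial genome was also separate between the ages, 14.9 to 21.2% in young and 23.1 to 30.4% in aged libraries, and its part in the ratios was not tested.

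**Figure D4:**
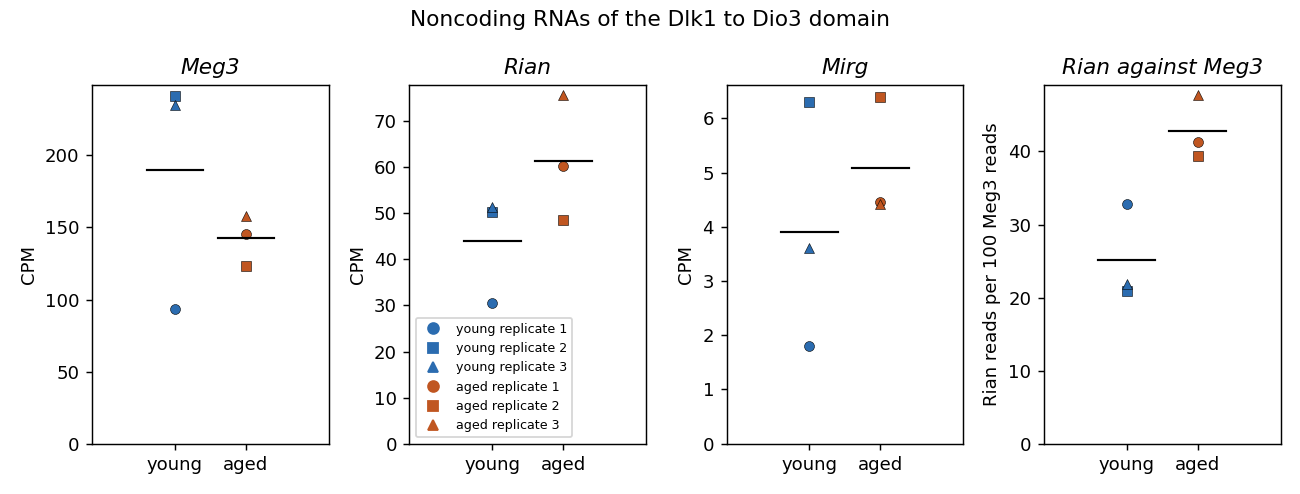
Meg3, Rian and Mirg, noncoding RNAs of the Dlk1 to Dio3 domain, by library in CPM, and reads of Rian per 100 reads of Meg3, where points are libraries and lines are group means. The ratio is 20.8 to 32.7 in young and 39.3 to 47.8 in aged libraries, with no overlap.

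Dlk1, a transmembrane protein that restrains adipocyte differentiation, is the paternal gene of that domain (chr12:109452823-109463336, plus strand). Its counts were 12, 11 and 14 in young replicates 1, 2 and 3 and 12, 26 and 7 in aged replicates 1, 2 and 3, which is 0.324 ± 0.0804 and 0.433 ± 0.229 CPM (SD, n = 3 each). The highest and lowest counts were both in aged libraries, and the highest was in the library with the most adipocyte RNA. The log2 fold change was 0.43 (standard error 0.63, adjusted p = 0.824 by edgeR), which at this depth leaves an interval from -1.04 to 1.90. The log2 ratio of Meg3 to Dlk1 did not separate the ages (difference -0.62, exact two-sided permutation p = 0.5). Rtl1 and Dio3, the other paternal coding genes of the domain, stayed at or below 0.451 CPM and were not tested.

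Cdkn1c encodes p57, an inhibitor of cyclin-dependent kinases that holds cells out of the cycle (chr7:143458339-143461050, minus strand). It was at 18.7, 10.1 and 10.1 CPM in young replicates 1, 2 and 3 and at 23.5, 12.9 and 28.8 CPM in aged replicates 1, 2 and 3. Young replicate 1 lay above aged replicate 2, and apart from that pair the aged libraries were higher. The log2 fold change was 0.74 (standard error 0.37, adjusted p = 0.532 by edgeR), the largest of the 10 genes and close to that of Igf2. It was 1.11 without young replicate 1 (adjusted p = 0.397 by edgeR) and 1.01 without aged replicate 2 (adjusted p = 0.267 by edgeR), but 0.49 without aged replicate 3 (adjusted p = 0.761 by edgeR), and 0.60 to 0.68 without 1 of the other libraries. With young replicate 1 and aged replicate 2 both left out it was 1.38 (adjusted p = 0.0872 by edgeR). In that fit 16.5% of all genes had an unadjusted p below 0.05. Those libraries held the highest young and the lowest aged Cdkn1c value, so leaving them out widens the difference by construction. Among the aged libraries Cdkn1c too was lowest in aged replicate 2, but it did not fall as far as Igf2. There were 12180 Cdkn1c reads per 100 of Igf2 in that library, against 69.0 to 123 in the others. The log2 ratio of Cdkn1c to Igf2 did not separate the ages (difference 2.10, exact two-sided permutation p = 0.8). Kcnq1ot1, the antisense RNA of the Cdkn1c domain, had a fitted log2 difference of 0.03 (adjusted p = 0.980 by edgeR).

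Grb10, an adaptor that restrains insulin and IGF receptors, was the steadiest of the 10 (chr11:11930508-12038683, minus strand). It was at 57.4, 60.4 and 66.2 CPM in young replicates 1, 2 and 3 and at 61.7, 63.5 and 75.8 CPM in aged replicates 1, 2 and 3, a 1.32-fold range. The log2 fold change of 0.13 had a standard error of 0.15 (adjusted p = 0.783 by edgeR), and it was 0.03 without aged replicate 3.

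Mest, a protein with a hydrolase fold read from the paternal copy, lies at chr6:30723547-30748465 on the plus strand. It was at 2.27, 2.21 and 1.49 CPM in young replicates 1, 2 and 3 and at 2.53, 2.41 and 3.96 CPM in aged replicates 1, 2 and 3. The aged libraries were all above the young ones, by a narrow gap between young replicate 1 and aged replicate 2. The log2 fold change was 0.57 (standard error 0.36, adjusted p = 0.604 by edgeR). It was 0.69 without young replicate 1, 0.70 without aged replicate 2 and 0.31 without aged replicate 3. In FPKM the groups overlapped, with 0.536 in young replicate 2 and 0.507 in aged replicate 2. Copg2 overlaps Mest by 912 bases on the other strand and had a fitted log2 difference of -0.21.

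Plagl1 (chr10:13060504-13131694, plus strand) was at 3.84, 4.77 and 6.44 CPM in young replicates 1, 2 and 3 and at 5.15, 6.26 and 7.75 CPM in aged replicates 1, 2 and 3. The groups overlapped, and the log2 fold change was 0.35 (standard error 0.29, adjusted p = 0.684 by edgeR). It was 0.20 without young replicate 1, 0.19 without aged replicate 3 and 0.58 without young replicate 3.

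Ndn encodes necdin, a MAGE family protein that restrains proliferation (chr7:62346569-62350262, plus strand). It was at 28.5, 21.3 and 15.5 CPM in young replicates 1, 2 and 3 and at 30.1, 18.7 and 22.3 CPM in aged replicates 1, 2 and 3. The ages overlapped over most of their range, with a fitted log2 difference of 0.12 (standard error 0.28, adjusted p = 0.893 by edgeR). Peg3, a zinc finger protein (chr7:6703892-6730431, minus strand), was at 1.34, 0.690 and 1.98 CPM in young replicates 1, 2 and 3 and at 0.692, 1.62 and 1.35 CPM in aged replicates 1, 2 and 3. Its log2 fold change was -0.13 (standard error 0.55, adjusted p = 0.944 by edgeR), and a fall or a rise of 2-fold lies inside the interval of -1.41 to 1.15.

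Of the paternal genes 1 of 6 and of the maternal genes 1 of 4 had a lower fitted level in aged aorta, where 47.9% of all genes were lower. Every 95% interval of the 10 genes covered 0, and limma gave 5 lower genes in place of 2. These signs therefore cannot tell whether the parental copy divides the directions. A wider list of 51 other imprinted genes gave 21 higher and 16 lower of 37 tested, their median log2 difference being 0.10, and edgeR called 0 of them. At an unadjusted p below 0.05, 2 were higher and 1 was lower, and DESeq2 called 0. Begain, at the edge of the Dlk1 domain, had 0.475, 0.259 and 0.146 CPM in young and 2.14, 0.689 and 1.27 CPM in aged libraries (log2 fold change 2.19, adjusted p = 0.390 by edgeR). Sfmbt2 went the other way (-1.26, adjusted p = 0.420), and Dcn, which is also a fibroblast marker, was at 1.45 (adjusted p = 0.436). Impact had the next smallest p in that list (0.29, adjusted p = 0.539).

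The partners of Igf2 and Grb10 in IGF signalling were read from a list of 28 genes, of which 25 were tested. edgeR called 0 of them. At an unadjusted p below 0.05, 7 were higher and 0 lower, where 5.56% of all genes were higher and 4.82% lower, and DESeq2 called 5, all higher in aged aorta, where it called 1.91% of all genes. Igfbp4, a secreted binding protein that limits IGF action, was at 157, 109 and 261 CPM in young and 1602, 498 and 1221 CPM in aged libraries (log2 fold change 2.65, standard error 0.50, adjusted p = 0.325 by edgeR and 5.2e-07 by DESeq2). Igf1 was at 41.2, 37.9 and 39.9 CPM in young and 160.9, 41.9 and 103.8 CPM in aged libraries, so aged replicate 2, which had the least Igf2, stood near the young ones for Igf1 (log2 fold change 1.37, adjusted p = 0.390 by edgeR, 0.0391 by DESeq2). Stc2, which inhibits the protease that frees IGF from its binding proteins, had a fitted log2 difference of 1.85 (adjusted p = 0.259 by edgeR, 9.3e-06 by DESeq2). Igfbp2, another binding protein, was at 1.82 (adjusted p = 0.380 by edgeR, 0.00758 by DESeq2), and Igfbp6 was at 2.10 (adjusted p = 0.390 by edgeR, 0.00791 by DESeq2). Igfbp6 overlapped between ages, since aged replicate 2 (26.2 CPM) lay inside the young range of 20.9 to 32.8 CPM. Without aged replicate 2, edgeR called Igf1 (1.74, adjusted p = 0.0356), Igfbp4 (3.01, adjusted p = 0.0356) and Igfbp6 (2.57, adjusted p = 0.0354), in a fit where 110 genes were called. Without young replicate 1, these 3 were at 1.40, 2.58 and 1.94 and none was called. With young replicate 1 and aged replicate 2 both left out they were at 1.77, 2.93 and 2.41. Their adjusted p by edgeR was then 0.0734, 0.0855 and 0.0711, so none was called, nor was any in the remaining left-out fits. These fits were looked up for IGF genes after their values were seen. Pik3r1, a regulatory subunit of PI3-kinase, was at 0.49 (adjusted p = 0.379 by edgeR). The receptors Igf1r (-0.15) and Igf2r (-0.03), the latter itself imprinted, differed little beside their spread. Fibroblast markers had a higher mean in aged aorta for 8 of 10 genes, with a median log2 difference of 1.39. At an unadjusted p below 0.05, 6 were higher and 0 lower, where 5.56% and 4.82% of all genes were. DESeq2 called 4 of these markers, all higher, where it called 1.91% of all genes. Their sums overlapped between ages. The 2 lower markers, Col1a2 (-0.05) and Col3a1 (-0.28), had the highest mean CPM of that list at each age. The part of fibroblast RNA in the binding protein values was not tested.

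**Figure D5:**
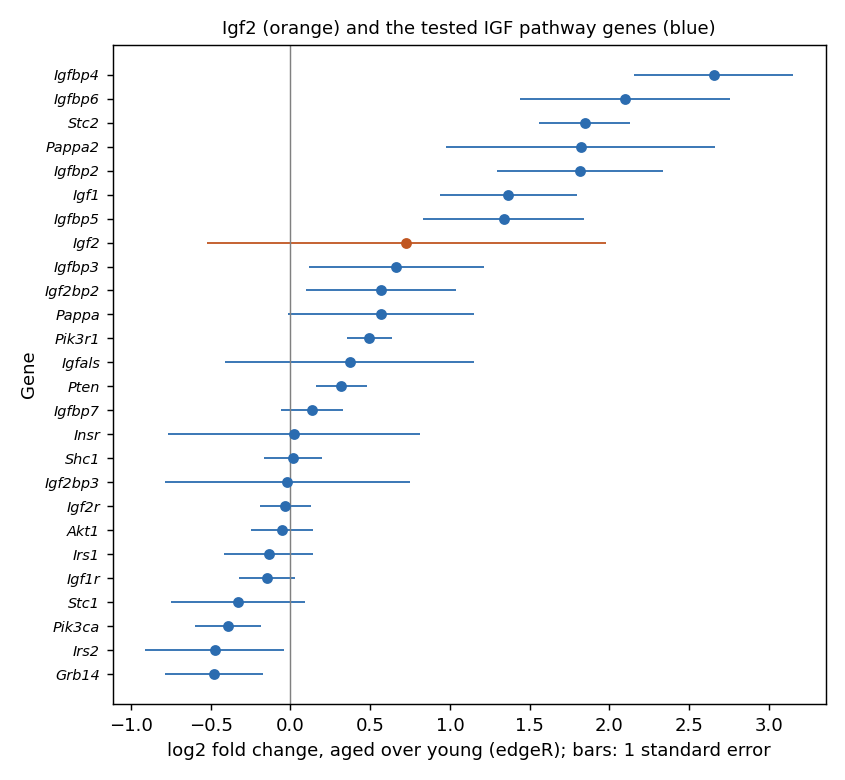
Fitted log2 fold change of aged over young aorta for Igf2 (orange) and the 25 tested genes of IGF signalling (blue), with bars of 1 standard error. Igfbp4 lies highest among the binding proteins at 2.65, and the receptors Igf1r and Igf2r lie near 0.

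Cell cycle genes were read beside Cdkn1c, Plagl1 and Ndn, which restrain proliferation. All 10 markers of proliferating cells had a higher mean in aged aorta, and their sum did not overlap, at 5.80 to 11.3 CPM in young and 19.6 to 31.4 CPM in aged libraries, with Bub1 and Cenpf at 0 in a library. In a list of 31 partners and repressors of the network, 12 of 30 tested genes were higher and 18 lower, edgeR called 0, and 4 were higher and 4 lower at an unadjusted p below 0.05, where the shares over all genes were 5.56% and 4.82%. DESeq2, which called 1.91% of all genes, called 3, all higher: Ccnd1 (log2 fold change 1.95, adjusted p = 1.83e-06), Ccna2 (1.51, adjusted p = 0.0123) and Uhrf1 (1.64, adjusted p = 0.00832). Notch3, a receptor abundant in smooth muscle, was at -0.71 (adjusted p = 0.372 by edgeR). Macrophage markers were also all higher in mean, and their sums did not overlap (110.6 to 148.5 CPM in young, 154.4 to 498.3 CPM in aged libraries). Schwann cell markers (84.6 to 203 CPM in young, 202 to 242 CPM in aged) and endothelial markers (491 to 598 and 433 to 1850 CPM) overlapped between the ages. The part of these cell types in the values of the 10 genes was not tested.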

How the data were processed

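RNA-seq of whole aorta from 6 mice was analysed, 3 young and 3 aged, with 1 library per mouse. Per the methods, libraries were SMARTER mRNA-Seq and were sequenced single-ended. The build is mm10 in the submitters' processing notes, and the aligner, counter and gene annotation are not given in the sources used here. The authors deposited raw counts per gene and FPKM values per gene, without pooling replicates. Coordinates and overlaps are from GENCODE M21 (GRCm38), which matched 55154 of 55335 gene identifiers.

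Counts were tested with edgeR 4.0.16 in R 4.3.3 (filterByExpr with a minimum count of 10 and a total of 15, TMM, quasi-likelihood test, Benjamini-Hochberg over 16612 genes, threshold 0.05). CPM values were scaled by TMM. DESeq2 1.42.0 and limma 3.58.1 on log2(FPKM + 1) and log2(FPKM + 0.1) were alternatives, beside other filters, other scaling, robust fitting, removal of mitochondrial genes, a replicate block and left-out libraries. Within-library ratios used counts + 0.5 and an exact permutation test. On simulated data with 184 genes changed by 4-fold, 145 (78.8%) were recovered with 7 false calls among 16612 genes. In the measured libraries the lowest adjusted p by edgeR was 0.189, and Igfbp4, at a log2 fold change of 2.65, had 0.325. Whether such recovery holds for the measured libraries was not tested.

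The 10 genes and all lists were chosen with earlier results of these data known. All 10 genes are named throughout, with the 4 genes of smallest p in each other list, and the 5 genes most alike over the libraries. Intervals on counts cover counting error only. The p-values measure the spread between these mice.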

Additional observations from a re-analysis of the deposited data

How the results depend on the processing

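edgeR called 0 genes under every edgeR setting with all libraries, DESeq2 called 305, and leaving out 1 library in turn gave 0 to 110, the highest without aged replicate 2. Of the 10 imprinted genes, 2 were lower in aged aorta, against 5 with limma under each pseudocount, where the median of all genes moved from 0.02 to -0.12 (FPKM + 1) and -0.19 (FPKM + 0.1). At an unadjusted p below 0.05 there were 0 to 2 of them when 1 library was left out, and 3 without both young replicate 1 and aged replicate 2. Of all genes, 11.3% had such a p without young replicate 1, 13.8% without aged replicate 2 and 16.5% without both.

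The log2 fold change of Igf2 was -0.45 with the replicate block, -0.013 and -0.73 with limma, and -0.31 to 1.31 with 1 library left out. With limma, Grb10 was at -0.083 and -0.095, and Ndn at -0.072 and -0.082. With 1 library left out, the ranges were -0.37 to 1.30 for H19, -0.079 to 0.70 for Dlk1, -0.43 to 0.27 for Peg3, -0.092 to 0.37 for Ndn, -0.73 to -0.19 for Meg3, 0.31 to 0.70 for Mest, 0.19 to 0.58 for Plagl1, 0.03 to 0.19 for Grb10 and 0.49 to 1.11 for Cdkn1c, and without both young replicate 1 and aged replicate 2 Dlk1 was at -0.24, Igf2 at 1.61, H19 at 1.37 and Ndn at 0.51. The log2 ratio of H19 to Igf2 differed by -0.47 to 3.77 and that of Cdkn1c to Igf2 by -0.21 to 3.44. The causes were not tested.

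The replicate numbers mark no shared animal. Same-numbered libraries deviated together with correlations of 0.077, 0.141 and 0.142, each aged library correlating best with its own number, and the replicate block called 0 genes. With at least 10 counts in every library, Igf2, H19 and Dlk1 were not tested. Igf2 in aged replicate 2 and Dlk1 in all libraries rest on few counts.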

Other observations

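The 10 imprinted genes had a mean centred log2 CPM of 0.07, -0.15 and -0.11 in young replicates 1, 2 and 3 and of 0.17, -0.40 and 0.42 in aged replicates 1, 2 and 3, a profile in which Igf2 weighs most in the aged libraries. The genes outside the list with the most similar log2 CPM over the 6 libraries, among 14076 with a mean of at least 1 CPM, were Cflar (Pearson r = 0.994), Mfsd6 (0.989), Irgm1 (0.987), Sigirr (0.986) and Elk3 (0.985). With 6 libraries and this many genes, such values are a description.

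Genes of a juvenile growth programme that are not imprinted were read from a list of 25. Of 19 tested, 14 were higher and 5 lower in aged aorta, and the median of their log2 differences was 0.28. edgeR called 0, 5 were higher and 0 lower at an unadjusted p below 0.05 (5.56% and 4.82% of all genes), and DESeq2 called 0. Ccne1 (2.94), Cdk1 (1.31), Mdk (0.74) and Hmga1 (0.60) had the smallest p-values, with adjusted p of 0.415 to 0.464 by edgeR. Ccne1 rests on few counts, with 26, 0 and 2 in young replicates 1, 2 and 3. Cdk1 and Bub1 are also markers of proliferating cells and Ccne1 is also in the list of partners, so these lists are not independent.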
